A study of Mus musculus with 6 samples.

Results

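Mitochondrial ribosomal protein genes were taken as every gene in the count table whose symbol starts with Mrpl or Mrps followed by a digit, with pseudogenes named -ps left out. The rule gave 77 of 24404 genes, 48 named for the large subunit (Mrpl) and 29 named for the small subunit (Mrps). RNA had been sequenced from 6 mouse hearts, 3 from miR-204-/- mice (KO-TAC) and 3 from wild-type mice (WT-TAC). Both genotypes had undergone transaortic constriction, an operation that narrows the aorta and makes the left ventricle pump against a higher pressure, and the hearts were taken 5 weeks after it. The labels give no strain, sex, age or number of animals behind a sample, so the p-values reflect only how far these libraries spread. No unoperated hearts were analysed here, and every comparison is between genotypes after surgery.

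The mitochondrial ribosome sits in the mitochondrial matrix and translates the few messenger RNAs of mitochondrial DNA, all of which encode subunits of the respiratory chain and the ATP synthase. Its RNAs come from mitochondrial DNA, but all of its proteins are encoded in the nucleus, made in the cytosol and imported. The small subunit binds the messenger RNA and decodes it, and the large subunit joins the amino acids and passes the chain towards the inner membrane. The heart has a dense mitochondrial network, and in humans inherited defects of several of these proteins cause cardiomyopathy. Symbols do not always follow structure. The products of Mrps18a and Mrps30 are placed in the large subunit in structures of the mammalian particle, and Mrps36 encodes a component of the 2-oxoglutarate dehydrogenase complex. These 3 genes were kept with the small subunit, as the symbol rule has it.

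The libraries held 6609315, 8494415 and 7013199 counts in KO-TAC, against 6411538, 8571737 and 7207111 in WT-TAC. The members had between 32 and 1262 counts per library, and all 77 passed the filter on low counts. Mir204 was listed with 0 counts in all 6 libraries, and its host gene Trpm3 had 57, 78 and 39 counts in KO-TAC, against 63, 64 and 44 in WT-TAC, so neither gene checked the genotype. All 6 cardiomyocyte markers were abundant, and liver markers had 0 to 4 counts per library. The erythroid markers Hba-a1 and Hbb-bs were at 0 in all 6 libraries, while the third erythroid marker, Alas2, was detected in all of them. KO-TAC 3 stood apart in the load marker Nppa, at 311 CPM (counts brought to a common library total with TMM scaling). The other KO-TAC libraries had 5033 and 6602 CPM of Nppa, and WT-TAC had 2444 to 7904 CPM. In the load marker Nppb KO-TAC 3 was also lowest, at 129.4 CPM, against 201.9 to 1492 CPM in the others. In the load marker Myh7 it lay within the range of the others, at 6578 CPM, against 2379 to 14270 CPM. KO-TAC 3 was also the lowest library for all 3 smooth muscle markers. These summed to 171.2, 170.3 and 64.6 CPM in KO-TAC, against 208.3, 252.6 and 193.9 CPM in WT-TAC, without overlap between groups. The count column of KO-TAC 3 bears the leading number of WT-TAC 3 in place of its own. These libraries were also the closest of all 15 pairs in counts, with a median chi-square over genes of 2.99, against 3.83 to 7.12 in the other pairs and 0.455 for sampling noise. Whether KO-TAC 3 holds the sample its label names cannot be told from this, and the counts of members are therefore also given without it. The part of these differences in the results was not tested. In whole hearts, fewer cells of a type and less RNA per cell cannot be told apart.

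The genotypes did not differ detectably in any of the 77 members. With Benjamini-Hochberg adjustment over all 12487 tested genes, edgeR's quasi-likelihood test called 0 members, each at an adjusted p of 0.9995, and DESeq2 and limma-voom also called 0. Among all tested genes 3 were called, or 0.0240%. At an unadjusted p under 0.05 there were 2 members, Mrpl54 and Mrps34, both higher in KO-TAC, beside 2.93% of all tested genes. That count moved when single libraries were left out. It was 7 without KO-TAC 3 (beside 723 of 12948 tested genes) and 4 without WT-TAC 2 (369 of 12817). It was 3 without WT-TAC 1 (437 of 12866) and 2 without WT-TAC 3 (489 of 12835). It was 1 without KO-TAC 1 (359 of 12869) and 1 without KO-TAC 2 (297 of 12873). Without KO-TAC 3 the test still called 0 members, and 52 members were higher in KO-TAC, as many as with all libraries. All 3 KO-TAC libraries lay above all 3 WT-TAC libraries in 4 members (Mrpl43, Mrpl54, Mrps12 and Mrps34), beside 4.26% of tested genes. The KO-TAC libraries all lay below the WT-TAC libraries in 2 members (Mrps2 and Mrps23), beside 3.72% of tested genes. With 77 members, counts of this size are near those backgrounds.

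Fold changes were small and leaned slightly upward. In the large subunit 31 members had a log2 fold change of KO-TAC over WT-TAC above 0 and 17 below it, with a median of 0.08, an interquartile range of −0.08 to 0.23 and extremes of −0.44 and 0.56. In the small subunit 21 members were above 0 and 8 below, with a median of 0.08, an interquartile range of −0.00 to 0.36 and extremes of −0.38 and 0.70. Over all tested genes 6266 were above 0 and 6221 below, with a median of 0.00. The 95% interval of the fold change stayed within 1 log2 unit of 0 in either direction for 46 of 48 large-subunit and 23 of 29 small-subunit members, against 8252 of 12487 tested genes. The median spread of a member between libraries of 1 genotype was an SD of 0.256 log2 CPM in the large subunit and 0.305 in the small subunit, against 0.346 over all tested genes.

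**Figure D1:**
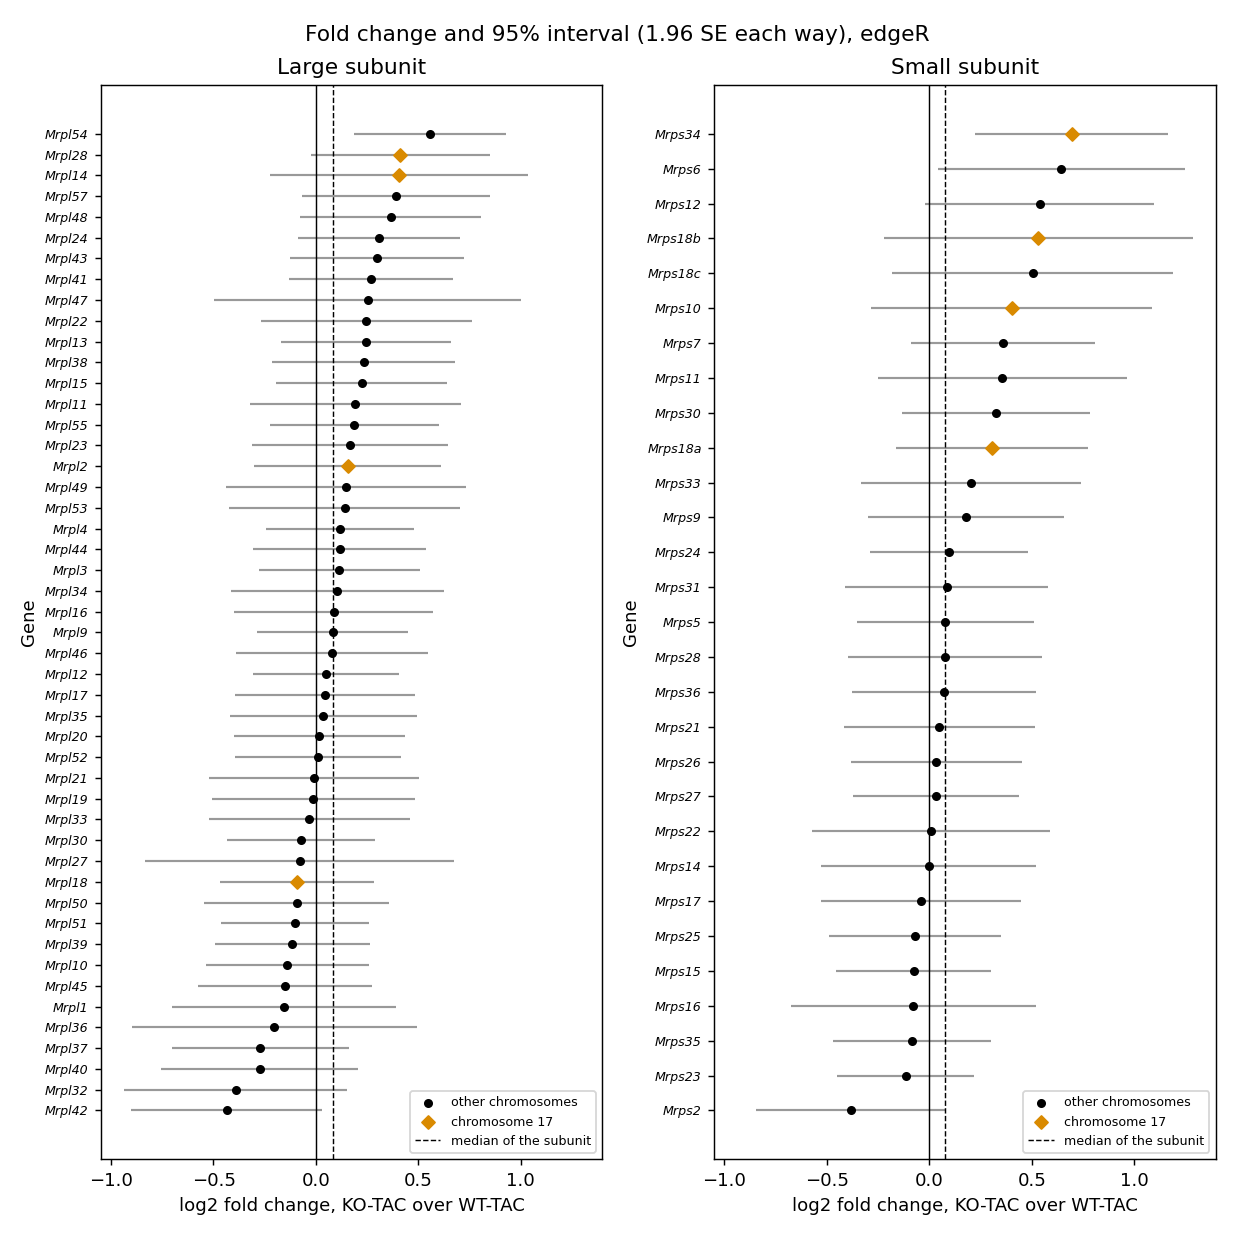
log2 fold change (KO-TAC over WT-TAC) of each member with its 95% interval, large subunit left and small subunit right, with chromosome 17 members as orange diamonds and the subunit median as a dashed line. Points ran from −0.44 for Mrpl42 to 0.70 for Mrps34, and all intervals crossed 0 but those of Mrpl54, Mrps34 and Mrps6.

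The upward lean rested on 1 wild-type library. Large-subunit transcripts summed to 1994, 1997 and 1939 CPM in KO-TAC 1, 2 and 3, against 1640, 2045 and 2002 CPM in WT-TAC 1, 2 and 3. Small-subunit transcripts summed to 1003, 1017 and 962.8 CPM in KO-TAC, against 761.6, 993.7 and 974.7 CPM in WT-TAC. WT-TAC 1 was the lowest library for both subunits, and the other 5 libraries overlapped between genotypes. The means were 1977 ± 32.7 CPM in KO-TAC and 1896 ± 222 CPM in WT-TAC for the large subunit, and 994 ± 28.1 CPM in KO-TAC and 910 ± 129 CPM in WT-TAC for the small subunit (SD, n = 3 each). The ratio of the means, KO-TAC over WT-TAC, was 1.04 for the large and 1.09 for the small subunit, and without WT-TAC 1 it was 0.977 and 1.01.

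**Figure D2:**
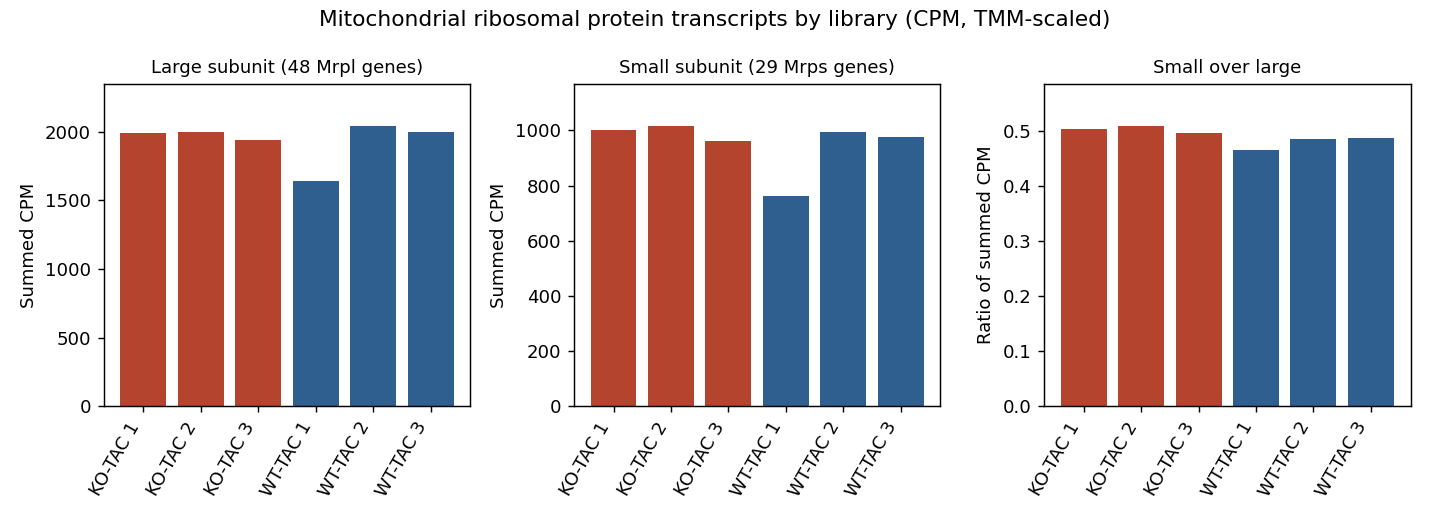
Summed CPM of the 48 large-subunit and 29 small-subunit genes, and their ratio, in each library (bars; KO-TAC red, WT-TAC blue). WT-TAC 1 is the lowest bar in all 3 panels, at 1640 CPM, 761.6 CPM and a ratio of 0.4645.

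The same library was low gene by gene. WT-TAC 1 held the lowest value of 40 of the 77 members (51.9%), 23 in the large and 17 in the small subunit, whereas it held the lowest value of 23.2% of all tested genes. Only 11 members stood above their 6-library mean there, against 42 to 49 in the KO-TAC libraries and 45 and 53 in WT-TAC 3 and WT-TAC 2. The median deviation of the members in WT-TAC 1 was −0.27 log2 CPM, while in the other 5 libraries it lay between 0.04 and 0.10. Mrps9, the small-subunit protein uS9m, gave 78.3, 76.4 and 82.3 CPM in KO-TAC, against 41.4, 84.7 and 82.9 CPM in WT-TAC. For Mrps10, whose bacterial counterpart is uS10, the values were 18.1, 17.9 and 16.1 CPM in KO-TAC, against 6.45, 13.7 and 19.2 CPM in WT-TAC. For Mrps9 both other WT-TAC libraries lay above all KO-TAC libraries, and for Mrps10 they lay on either side of them.

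Without WT-TAC 1, 37 of 77 members were higher in KO-TAC, 25 in the large and 12 in the small subunit. The median log2 fold change was then 0.03 in the large and −0.04 in the small subunit. Leaving out any other library kept the median between 0.06 and 0.14 in the large subunit and between 0.09 and 0.22 in the small subunit. WT-TAC 1 was also low in other energy and translation genes, with a median deviation of −0.37 log2 CPM over subunits of respiratory complex I and −0.29 over cytosolic ribosomal proteins. It had the highest Nppa, at 7904 CPM, but not the highest Nppb or Myh7. Its Nppb was 740.6 CPM, against 1492 CPM in KO-TAC 1, and its Myh7 was 7253 CPM, against 14270 CPM in KO-TAC 2. Its summed cardiomyocyte markers were 71830 CPM, the lowest but KO-TAC 1 at 66710 CPM. The 4 fibroblast markers summed to 658.4 to 1145 CPM in KO-TAC, against 837.6 to 1355 CPM in WT-TAC, with the highest sum in WT-TAC 1. Of these markers 1, the collagen gene Col1a1, was highest there, with 5830 counts, against 994 to 2812 counts in KO-TAC and 997 and 2964 counts in the other WT-TAC libraries. The part of these differences in the members' values was not tested.

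**Figure D3:**
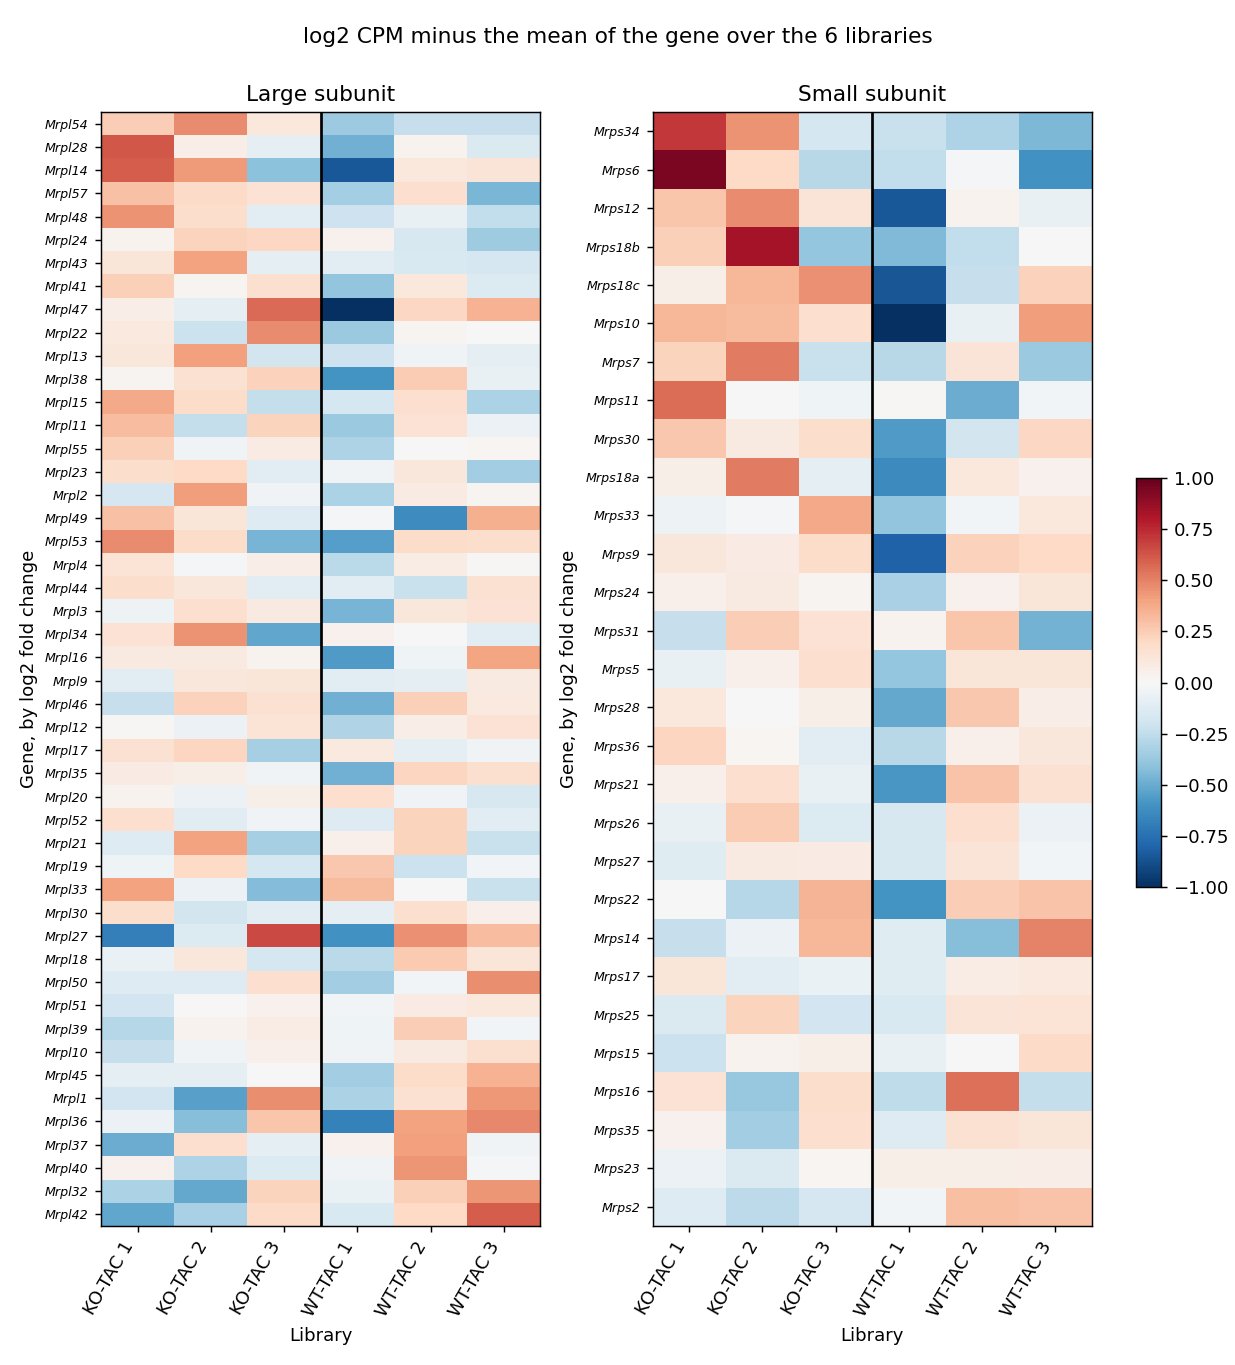
Each member's log2 CPM in each library minus its mean over the 6 libraries, sorted by log2 fold change within a subunit, KO-TAC left of the black line and WT-TAC right of it, red high and blue low. The WT-TAC 1 column is blue for most genes of both subunits, with a median deviation of −0.27.

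**Figure D4:**
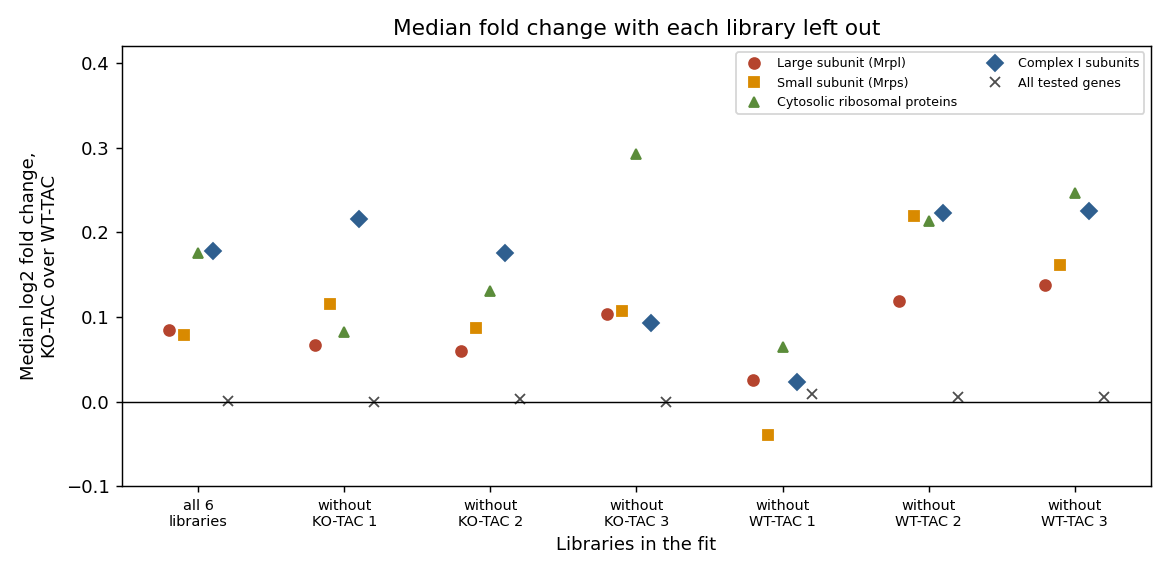
Median log2 fold change (KO-TAC over WT-TAC) of both subunits, cytosolic ribosomal proteins, complex I subunits and all tested genes, with all 6 libraries and with each left out. All 4 gene lists fall to their lowest median without WT-TAC 1, where the small subunit is at −0.04, and all tested genes stay at 0.00 to 0.01.

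Among large-subunit genes, Mrpl54 had the smallest p. It encodes mL54, a protein that mitochondrial ribosomes have and bacterial ribosomes lack. The gene lies on chromosome 10 from 81264713 to 81266934 on the minus strand (GRCm38), and its exons overlap no other annotated gene. Mrpl54 gave 57.0, 66.6 and 51.7 CPM in KO-TAC, against 37.3, 41.0 and 41.0 CPM in WT-TAC. Every KO-TAC library lay above every WT-TAC library, and the gap did not depend on WT-TAC 1. The log2 fold change was 0.56 ± 0.19 (SE), with an unadjusted edgeR p of 0.0115 (adjusted p = 0.9995), and it stayed between 0.45 and 0.64 with any 1 library left out. Apba3, an adaptor protein gene that starts 26 bases away on the other strand, had a log2 fold change of −0.03 ± 0.21 (SE).

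Mrpl43, which encodes the mitochondria-specific protein mL43, was the other large-subunit gene without overlap between groups. It gave 34.2, 41.7 and 29.4 CPM in KO-TAC, against 29.3, 28.4 and 28.1 CPM in WT-TAC. KO-TAC 3 stood only just above the highest WT-TAC library, and the log2 fold change was 0.30 ± 0.22 (SE). Part of its exons are antisense to Twnk, the mitochondrial DNA helicase gene, and the library kit may not have kept strand, so reads from that stretch cannot be assigned to either gene.

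Other large-subunit genes near the top of the list overlapped between groups. Mrpl28, whose product bL28m has a bacterial counterpart, gave 109.9, 74.97 and 66.6 CPM in KO-TAC, against 51.1, 73.0 and 64.8 CPM in WT-TAC, with a log2 fold change of 0.41 ± 0.22 (SE). KO-TAC 1 alone was far above the rest, and without it the value was 0.17. Mrpl57 (0.39 ± 0.23) and Mrpl48 (0.36 ± 0.22), both mitochondria-specific proteins, completed the 4 smallest p among genes higher in KO-TAC.

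Among large-subunit genes lower in KO-TAC, Mrpl42 had the smallest p. It encodes mL42, another mitochondria-specific protein, and gave 60.3, 68.8 and 98.7 CPM in KO-TAC, against 77.6, 98.9 and 131.6 CPM in WT-TAC. The groups overlapped, and the log2 fold change was −0.44 ± 0.24 (SE). Mrpl32, whose precursor is cleaved by the m-AAA protease before it joins the ribosome, gave 14.8, 12.9 and 21.4 CPM in KO-TAC, against 17.6, 21.7 and 24.9 CPM in WT-TAC (log2 fold change −0.39 ± 0.28, SE). Mrpl40 (−0.28 ± 0.24) and Mrpl37 (−0.27 ± 0.22), both mitochondria-specific proteins, followed, and all 4 had p above 0.05 before adjustment.

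In the small subunit Mrps34 had the smallest p. It encodes mS34, which is needed for a stable small subunit and whose loss in humans causes Leigh syndrome. The gene lies on chromosome 17 from 24895116 to 24897502 on the plus strand (GRCm38). Mrps34 gave 59.8, 50.1 and 32.5 CPM in KO-TAC, against 31.5, 29.6 and 26.8 CPM in WT-TAC. The groups did not overlap, but KO-TAC 3 was just above the highest WT-TAC library. The log2 fold change was 0.70 ± 0.24 (SE), with an unadjusted edgeR p of 0.0121 (adjusted p = 0.9995), and leaving out 1 library moved it between 0.50 and 0.91.

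The Mrps34 count is uncertain, because its annotated exons share 763 bases with Nme3 on the same strand and 1309 bases with Mapk8ip3 on the other. Mapk8ip3, a scaffold of kinesin transport with more reads than Mrps34, gave 143, 136.7 and 134.2 CPM in KO-TAC, against 113.3, 106.7 and 72.5 CPM in WT-TAC. Its groups did not overlap either, with a log2 fold change of 0.50 ± 0.20 (SE). Nme3, a nucleoside diphosphate kinase gene, had a log2 fold change of 0.58 ± 0.41 (SE), and Eme2, a DNA repair gene that starts 29 bases from Mrps34, 0.10 ± 0.31 (SE).

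Mrps12 encodes uS12m, a protein of the decoding centre. It gave 21.3, 24.3 and 19.2 CPM in KO-TAC, against 9.75, 18.0 and 16.7 CPM in WT-TAC. The groups did not overlap, and WT-TAC 1 was far below the other WT-TAC libraries. The log2 fold change was 0.54 ± 0.29 (SE) with all libraries and 0.31 without WT-TAC 1. Sars2, the mitochondrial seryl-tRNA synthetase gene whose start is 172 bases from that of Mrps12 on the other strand, had a log2 fold change of 0.37 ± 0.35 (SE).

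Mrps6 and Mrps7 were the other small-subunit genes with the smallest p on the higher side. Mrps6, whose product is bS6m, gave 44.4, 26.5 and 19.1 CPM in KO-TAC, against 19.5, 22.7 and 15.2 CPM in WT-TAC, with a log2 fold change of 0.65 ± 0.31 (SE). KO-TAC 1 was the high library, and without it the log2 fold change was 0.25. With all libraries the unadjusted edgeR p of Mrps6 was 0.0551. Its exons share 464 bases with Slc5a3, a myo-inositol transporter gene, on the same strand. Mrps7, whose product uS7m lies in the head of the subunit, gave 58.3, 71.4 and 42.7 CPM in KO-TAC, against 41.1, 54.6 and 38.5 CPM in WT-TAC (log2 fold change 0.36 ± 0.23, SE).

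Only 2 small-subunit genes had all KO-TAC libraries below all WT-TAC libraries. Mrps2, whose product uS2m is altered in a human disorder with deafness and hypoglycaemia, gave 19.4, 17.7 and 18.9 CPM in KO-TAC, against 20.9, 26.3 and 25.9 CPM in WT-TAC, with a log2 fold change of −0.38 ± 0.24 (SE). Mrps23, which encodes the mitochondria-specific protein mS23, gave 76.9, 72.4 and 81.1 CPM in KO-TAC, against 83.1, 83.0 and 83.5 CPM in WT-TAC. The WT-TAC libraries of Mrps23 were almost equal, and the log2 fold change was only −0.12 ± 0.17 (SE). Mrps35 (−0.08 ± 0.20) and Mrps15 (−0.08 ± 0.19) completed the 4 smallest p on the lower side.

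**Figure D5:**
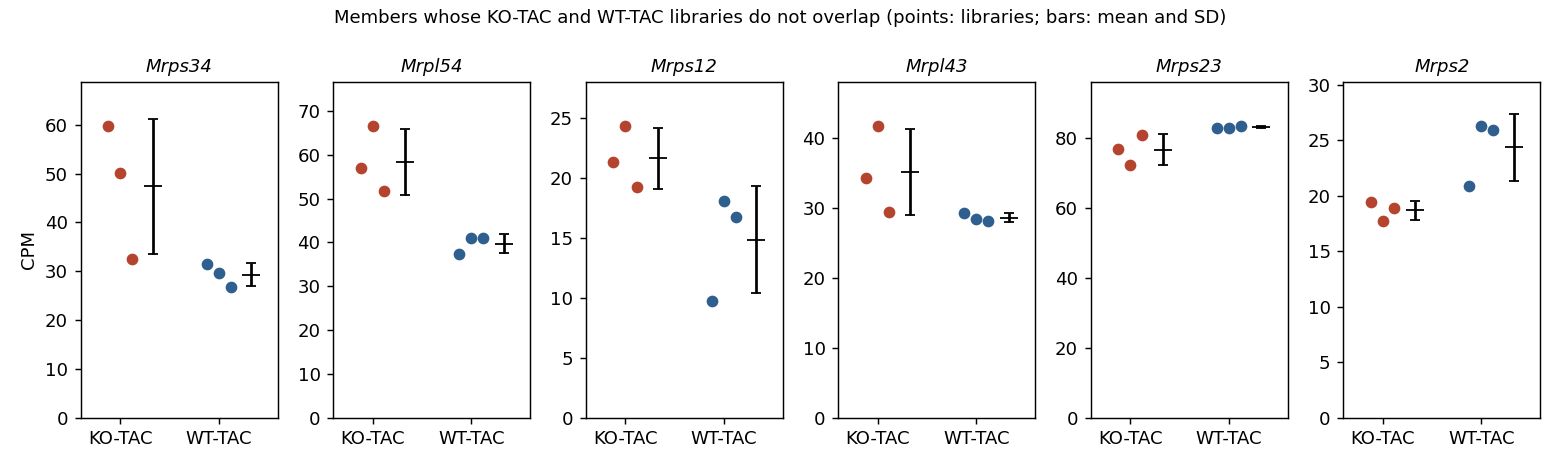
CPM of the 6 members whose libraries do not overlap between genotypes (points; KO-TAC red and left, WT-TAC blue and right; bars give mean and SD, n = 3). KO-TAC is higher in Mrps34, Mrpl54, Mrps12 and Mrpl43 and lower in Mrps23 and Mrps2, and the gap in Mrpl43 is between 29.4 and 29.3 CPM.

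Genes whose human counterparts cause cardiomyopathy when mutated had fold changes near 0. Mrpl3, which encodes uL3m near the peptidyl transferase centre, gave 81.0, 94.3 and 89.6 CPM in KO-TAC, against 60.9, 90.7 and 93.0 CPM in WT-TAC, with a log2 fold change of 0.11 ± 0.20 (SE). Mrpl44, an RNase III-like protein of the large subunit, gave 35.1, 33.5 and 28.7 CPM in KO-TAC, against 28.8, 26.6 and 34.4 CPM in WT-TAC (0.12 ± 0.22, SE). Both genes overlapped between groups.

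Mrps22, a mitochondria-specific small-subunit protein, gave 18.9, 15.4 and 23.8 CPM in KO-TAC, against 12.4, 22.3 and 22.9 CPM in WT-TAC, with a log2 fold change of 0.01 ± 0.30 (SE). Mrps14, which encodes uS14m, gave 26.2, 29.5 and 38.7 CPM in KO-TAC, against 28.3, 22.8 and 43.4 CPM in WT-TAC (−0.00 ± 0.27, SE). The groups of both genes overlapped, and the intervals ran from −0.57 to 0.59 for Mrps22 and from −0.53 to 0.52 for Mrps14. Changes within those intervals are not excluded.

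The remaining genes of a fixed panel had log2 fold changes between −0.08 and 0.19. They were Mrpl12 of the factor-binding stalk (0.05 ± 0.18), Mrpl11 at the base of that stalk (0.19 ± 0.26), Mrpl2, whose product uL2m binds near the peptidyl transferase centre (0.15 ± 0.23), Mrpl4 at the exit tunnel (0.12 ± 0.19), Mrps5, whose product uS5m lies near the messenger RNA entry (0.08 ± 0.22), and Mrps16, whose defect in humans causes fatal neonatal lactic acidosis (−0.08 ± 0.31; all SE).

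Levels differed far more between members than between genotypes. Per kilobase of annotated exon, the mean level over the 6 libraries ran from 2.58 CPM per kilobase for Mrpl47 to 90.6 for Mrpl12 in the large subunit, a 35.1-fold range, and from 1.89 for Mrps10 to 54.8 for Mrps21 in the small subunit, a 29.1-fold range. The median level was 17.6 CPM per kilobase in the large and 9.65 in the small subunit. After Mrpl12, the highest large-subunit genes were Mrpl18 at 66.6 and Mrpl54 at 59.5 CPM per kilobase, and after Mrps21 the highest small-subunit genes were Mrps23 at 51.3 and Mrps28 at 36.3. The second lowest were Mrpl48 at 3.64 and Mrps17 at 2.72 CPM per kilobase. Lengths are unions of all annotated exons, so genes with long minor isoforms appear lower than their main transcript would.

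In the 2 genotypes the levels per kilobase were close for most of these genes. Mrpl12 stood at 92.2 CPM per kilobase in KO-TAC, against 89.0 in WT-TAC, and Mrps21 at 55.8 in KO-TAC, against 53.8 in WT-TAC. Mrpl54 stood at 70.8 CPM per kilobase in KO-TAC, against 48.2 in WT-TAC.

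The small-subunit sum divided by the large-subunit sum did not overlap between genotypes, at 0.503, 0.509 and 0.497 in KO-TAC, against 0.4645, 0.486 and 0.487 in WT-TAC. The ratio of the means was 1.05, and 1.03 without WT-TAC 1. This separation was noticed in the data and depended on which genes were summed. Without Mrps34 alone, the values ran from 0.473 to 0.484 in KO-TAC, against 0.445 to 0.473 in WT-TAC, with the lowest KO-TAC library just below the highest WT-TAC library. Without the 32 members whose exons overlap another gene, they ran from 0.545 to 0.591 in KO-TAC, against 0.537 to 0.592 in WT-TAC, a ratio of 1.01. With Mrps18a and Mrps30 counted as large-subunit proteins and Mrps36 left out, they ran from 0.420 to 0.423 in KO-TAC, against 0.405 to 0.415 in WT-TAC, and did not overlap.

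Chromosome 17 held 8 members, and 7 of them had a log2 fold change above 0, with a median of 0.40. The other 69 members, on other chromosomes, had a median of 0.08, with 65.2% above 0. Over all 592 tested genes on chromosome 17 the median was −0.01, with 48.1% above 0. Of these 592 genes 1 was called higher and 1 lower in KO-TAC, against 2 and 1 of all 12487 tested genes. In order along the chromosome the members were Mrpl18 (−0.09), Mrps34 (0.70), Mrpl28 (0.41), Mrps18b (0.53), Mrpl14 (0.41), Mrps18a (0.31), Mrpl2 (0.15) and Mrps10 (0.40). This set was chosen after its values were seen, and its median was 0.13 without WT-TAC 1, with values of up to 0.50 when another library was left out.

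The microRNA missing in KO-TAC pairs with messenger RNAs through its seed, and the mature strand is shown because its letters define the sites counted here. It is given as RefSeq has it (GRCm38.p6, chr19:22750610-22750631, plus strand), with the seed, bases 2 to 8, in capitals.
mmu-miR-204-5p: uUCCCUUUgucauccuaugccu

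The reverse complement of the seed, AAAGGGA, was found in the longest annotated 3' UTR (GENCODE M21) of 8 of 77 members, or 10.4%, against 2041 of 12011 tested genes with a 3' UTR, or 17%. The members' 3' UTRs were shorter, with a median of 387 bases, against 1252 bases over tested genes. The 8 members were Mrpl1, Mrpl15, Mrpl35, Mrpl47, Mrpl52, Mrpl54, Mrps25 and Mrps33, of which 6 had a log2 fold change above 0 and 2 below. Their median was 0.12, against 0.08 for the 69 members without the site. Without WT-TAC 1 the medians were −0.06 with the site and −0.00 without it. A match is a description of letters, and a longest 3' UTR may belong to a minor isoform. The sites of Mrpl54, which had the smallest p, and of Mrpl1, which had the lowest fold change of the 8, are shown with the match in capitals.
Mrpl54 3' UTR, bases 129 to 135: aaataaataccAAAGGGAcctacagcagc
Mrpl1 3' UTR, bases 522 to 528: gaaggggatccAAAGGGAggcaacagagt

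Mrpl1, whose product uL1m forms the stalk at the tRNA exit, gave 29.8, 23.5 and 47.0 CPM in KO-TAC, against 27.4, 38.0 and 46.0 CPM in WT-TAC. The groups overlapped fully, and the log2 fold change was −0.16 ± 0.28 (SE). The other 6 genes with a site had log2 fold changes of 0.22 ± 0.21 for Mrpl15, 0.04 ± 0.23 for Mrpl35, 0.25 ± 0.38 for Mrpl47, 0.01 ± 0.21 for Mrpl52, −0.07 ± 0.21 for Mrps25 and 0.20 ± 0.27 for Mrps33 (SE).

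Promoters of nuclear genes for mitochondrial proteins are known for sites of nuclear respiratory factor 1 (NRF-1) and of GA-binding protein, an ETS factor. RefSeq promoters (GRCm38.p6) matched 68 of 77 members by symbol, and the 250 bases before the start were searched on both strands, any overlap between matches counted once. The NRF-1 core GCGCATGCG was in 7 of 68 members (10.3%), 6 large and 1 small, against 3.44% of 9460 tested genes and 1.64% of all 27025 promoters. The ETS core CCGGAAG was in 17 of 68 members (25%), 11 large and 6 small, against 15.4% of tested genes and 7.83% of all promoters. These shares are descriptions. The 120 bases before the start are shown for 4 genes described above or carrying both cores, 5′ to 3′ on the gene's strand, with matches in capitals.
Mrpl22 (chr11:58171544-58171663, plus strand): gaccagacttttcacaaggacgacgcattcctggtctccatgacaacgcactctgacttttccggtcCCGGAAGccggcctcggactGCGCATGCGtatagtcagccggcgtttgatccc
Mrpl32 (chr13:14613038-14613157, minus strand): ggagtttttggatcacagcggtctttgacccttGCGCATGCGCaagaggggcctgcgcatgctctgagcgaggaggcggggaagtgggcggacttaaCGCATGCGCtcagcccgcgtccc
Mrpl43 (chr19:45006443-45006562, minus strand): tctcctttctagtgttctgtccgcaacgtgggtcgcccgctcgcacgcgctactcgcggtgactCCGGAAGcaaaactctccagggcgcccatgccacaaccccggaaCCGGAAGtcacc
Mrps22 (chr9:98601680-98601799, minus strand): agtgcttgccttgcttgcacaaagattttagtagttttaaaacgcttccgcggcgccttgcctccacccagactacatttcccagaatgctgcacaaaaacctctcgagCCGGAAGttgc

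Mrpl22 holds 1 match of each core in this window, Mrpl32 has 2 matches of the NRF-1 core, Mrpl43 has 2 of the ETS core and Mrps22 has 1. The log2 fold changes of these genes alone did not share a direction, with Mrpl22 at 0.25, Mrpl32 at −0.39, Mrps22 at 0.01 and Mrpl43 at 0.30. Members with a core were not compared as a set. Transcripts of the factors themselves were not called, with a log2 fold change of 0.36 ± 0.31 (SE) for Nrf1 and 0.00 ± 0.28 (SE) for Gabpa, the DNA-binding chain of GA-binding protein.

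Many members start back to back with another gene. A protein-coding gene started on the other strand within 1000 bases for 23 of 77 members (29.9%), 16 large and 7 small, against 11.7% of tested genes. Of 20 such partners tested, 15 had a log2 fold change above 0 and 5 below, against 6266 of all 12487 tested genes above 0. This count was not taken without WT-TAC 1. Of the partners 0 were called, and 9 had the same sign as their member. Exons of 27 members overlapped another gene on the other strand and those of 8 on the same strand, 32 members in all, among them Mrpl18, Mrpl44, Mrpl47, Mrpl48, Mrps7 and Mrps25. The 32 had a median log2 fold change of 0.12, against 0.07 in the other 45. A processed pseudogene at least 95% identical over at least 200 bases was annotated for 18 members, such as Mrpl23-ps1 for Mrpl23 and Gm5776 for Mrps33, so their counts are uncertain. Of the genes given above, this holds for Mrpl22, Mrpl32, Mrpl42, Mrpl48, Mrps5, Mrps10, Mrps16, Mrps18b, Mrps21, Mrps25, Mrps33 and Mrps36. The 18 had a median of 0.06, against 0.09 in the other 59.

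The rest of the mitochondrial translation machinery also had 0 genes called by edgeR. It was taken as the other-named ribosomal proteins, translation factors, assembly and rRNA modification, aminoacyl-tRNA synthetases and mitochondrial DNA transcription and maintenance. In these lists 1 gene, Mgme1, had an unadjusted edgeR p under 0.05, beside 2.93% of all tested genes. All 6 mitoribosomal proteins with other symbols had log2 fold changes above 0, with a median of 0.23 that was 0.00 without WT-TAC 1. The highest was Ict1, a peptidyl-tRNA hydrolase built into the large subunit, at 40.2, 54.3 and 31.2 CPM in KO-TAC, against 22.7, 31.5 and 36.8 CPM in WT-TAC (0.47 ± 0.26, SE). Dap3, a GTP-binding small-subunit protein, had 0.10 ± 0.21 (SE).

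Of 16 translation factors 8 were above 0 and 8 below, with a median of −0.03. Mtif3, an initiation factor, stood at 0.42 ± 0.26 and Mtrf1, a release factor, at −0.24 ± 0.32 (SE). Of 28 genes for ribosome assembly and rRNA modification 18 were above 0 and 10 below, with a median of 0.06, from Wbscr16, an assembly factor (0.56 ± 0.31, SE), to Mrm1, an rRNA methyltransferase (−0.32 ± 0.30, SE), by smallest p each way. Of 20 mitochondrial aminoacyl-tRNA synthetase genes and amidotransferase subunits 14 were above 0 and 6 below, with a median of 0.13, and those with the smallest p were Hars2 (0.45 ± 0.30, SE) and Pars2 (−0.46 ± 0.61, SE).

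Of 23 tested genes of mitochondrial DNA transcription and maintenance, 14 were above 0 and 9 below, with a median of 0.08. Mgme1, an exonuclease of mitochondrial DNA replication, gave 20.6, 20.3 and 21.3 CPM in KO-TAC, against 12.4, 12.9 and 16.98 CPM in WT-TAC. Its groups did not overlap, with a log2 fold change of 0.56 ± 0.26 (SE) and an unadjusted edgeR p of 0.0494 (adjusted p = 0.9995). In the other lists of the translation machinery, groups also did not overlap in 2 synthetase genes, Iars2 and Sars2, higher in KO-TAC. The assembly gene Mrm1 was lower in KO-TAC without overlap. Over all tested genes the shares without overlap were 4.26% with KO-TAC higher and 3.72% with KO-TAC lower. Tfam, which packages and transcribes mitochondrial DNA, gave 25.7, 29.9 and 48.5 CPM in KO-TAC, against 37.1, 47.3 and 53.7 CPM in WT-TAC (−0.41 ± 0.26, SE), and its groups overlapped.

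Cytosolic ribosomal proteins and complex I subunits leaned the same way as the mitochondrial ribosome. Of 73 tested cytosolic ribosomal protein genes 54 were above 0 and 19 below, with a median log2 fold change of 0.18. Of 35 tested complex I genes 31 were above 0 and 4 below, with a median of 0.18. Without WT-TAC 1 the medians were 0.06 and 0.02. The 2 lists parted in KO-TAC 3, whose median deviation was −0.21 log2 CPM over cytosolic ribosomal proteins and 0.22 over complex I. The mitochondrial ribosome lay between them there, at 0.04. In KO-TAC 1 they parted the other way, at 0.27 over cytosolic ribosomal proteins and −0.02 over complex I, with the mitochondrial ribosome at 0.06.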

How the data were processed

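The deposited table holds raw counts per gene symbol, which the authors had not normalized, as its whole numbers show. HISAT2 2.1.0, Subread, FastQC and edgeR, and the mouse builds GRCm38 and mm10, appear in the submitters' processing notes without their roles. Per the labels' protocols, either a plain or a stranded TruSeq kit was used. Which of them was used for a library is not given. The column of KO-TAC 3 carries the leading number of WT-TAC 3, not its own, and was assigned by its library index, which it shares with no other sample.

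Counts were fitted with edgeR 4.0.16 in R 4.3.3: filterByExpr with a minimum count of 10, TMM scaling, a robust quasi-likelihood fit without covariates, and Benjamini-Hochberg adjustment over 12487 genes, with a threshold of 0.05. The script was tested on simulated data. The SE is the size of the log2 fold change divided by the root of the F statistic, and intervals span 1.96 SE each way, which can be narrower than the test allows. CPM use TMM-scaled totals. The biological coefficient of variation, common to all genes, was 0.286, so spread between samples limits precision more than depth. No pair of libraries agreed within sampling noise.

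The members, the lists and the comparisons were chosen with earlier results of these data known, so lists are described by counts and medians, without a p. Genes named are a fixed panel of members, the 4 smallest p each way per subunit, members whose groups do not overlap, the 3 highest and 2 lowest per kilobase, members with a seed site and, in other lists, the smallest p each way. Others named were chosen after their values were seen. Positions and 3' UTRs come from GENCODE M21, and pseudogene copies were found with BLAST 2.17.0. Alternatives were other scalings, no filter, DESeq2 1.42.0, limma-voom (limma 3.58.1), the replicate number as a block, and leaving out each library.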

Additional observations from a re-analysis of the deposited data

How the results depend on the processing

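No member was called under any of the 13 alternative settings of the fit. The smallest adjusted p of a member was 0.402, for Mrps34 without KO-TAC 3 in edgeR's quasi-likelihood test. The number of all tested genes called was 3 in the main setting, 21 without a filter on low counts, 17 with DESeq2 and 0 with limma-voom (376 at an unadjusted p under 0.05), and leaving out 1 library gave 0 to 7. The number of small-subunit members higher in KO-TAC ran from 12 (without WT-TAC 1) to 23 with 1 library left out, against 21 with all. Of 507 alternative values of the named members, 6 moved by over 1 SE and 0 were called or reversed in a call; these were Mrpl28 and Mrps6 without KO-TAC 1, Mrpl1 without KO-TAC 3, Mrps16 without WT-TAC 2, and Mrps10 and Mrps14 without WT-TAC 3. The median log2 fold change of all tested genes was 0.00 with TMM, −0.00 with RLE, 0.01 with upper-quartile and −0.02 with no scaling.

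The small over large ratio, KO-TAC over WT-TAC, was 1.05. Alternatives chosen after seeing the data gave 1.03 without chromosome 17 members and 1.01 without members that overlap another gene. With Mrps18a, Mrps30 and Mrps36 placed otherwise it was 1.03. Without chromosome 17 members the groups overlapped, at 0.4919 to 0.4971 in KO-TAC, against 0.4644 to 0.4922 in WT-TAC.

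Samples share replicate numbers, and the labels do not say whether the numbers pair them. Deviations of same-numbered samples correlated at 0.14, 0.01 and 0.26, against −0.22 to 0.15 for differently numbered samples. KO-TAC 2 correlated best with WT-TAC 1, so these values did not settle the pairing. With the replicate block 6 genes and 0 members were called. At an unadjusted p under 0.05 there were then 4 members, beside 574 of 12487 tested genes. Without a filter on low counts there were also 4 members, beside 672 of 17724 tested genes.

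At these counts and with 3 libraries a genotype, changes within the members' intervals, which for 8 of 77 members reach past 1 log2 unit, are not excluded. The intervals are not a detection limit, as Mrps34, at a log2 fold change of 0.70 with an interval above 0, was not called.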
